A study of Homo sapiens with 9 samples.

Results

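Il1rl1, which encodes the IL-33 receptor ST2, was examined together with 9 other genes of the interleukin-1 (IL-1) family in orthotopic tumors of anaplastic thyroid cancer (ATC). The 10 genes were Il1rl1, Il1rap, Il1r1, Il1r2 and Il18r1, which encode receptors, and Il33, Il1a, Il1b, Il18 and Il1rn, which encode ligands and an antagonist. They were taken by symbol from a table of 17369 genes, and all 10 had a row. Il1rl1 had been picked because its level was much lower in tumors of adapted cells than in tumors of original cells, so those 2 differences are described here without a test. The other 9 genes were listed by family name.

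The tumors were grown from TBP3743, a cell line from a mouse ATC. Its founder animals carried an activating Braf mutation and lacked Trp53, both in the thyroid only, and all 3 groups shared these lesions. The original/B6129SF1 group carried original TBP3743 cells in B6129SF1 mice. The adapted/B6129SF1 group carried adapted cells, obtained after passage round 3 through C57BL/6 mice, in B6129SF1 mice. The adapted/C57BL/6 group carried the same adapted cells in C57BL/6 mice. Each group had 3 tumors from labelled biological replicates, and the hosts were female mice 6 weeks of age that received 100000 cells in the left thyroid lobe and were harvested 14 days later. The adapted cells were 1 line selected by passage, so adapted/B6129SF1 against original/B6129SF1 compared 2 lines in the same host strain, adapted/C57BL/6 against adapted/B6129SF1 compared 2 host strains with the same line, and adapted/C57BL/6 against original/B6129SF1 differed in both. RNA came from whole tumors, so fewer cells of a type and less RNA per cell cannot be told apart in any value below.

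Values are FPKM, fragment numbers relative to transcript length and library size, so levels can be set side by side between genes on a scale per length. The read depth was unknown, and the deposited values summed to between 457983 and 540514 FPKM per tumor. Adapted/B6129SF1 replicate 3 and adapted/C57BL/6 replicate 1 stood apart from the rest by skeletal muscle transcripts. The 10 muscle markers summed to 32320 FPKM in adapted/B6129SF1 replicate 3 and to 4981 FPKM in adapted/C57BL/6 replicate 1, against 3.76 to 617.5 FPKM in the other 7 tumors. The labelled cell type was a cancer epithelial cell. The keratin gene Krt8 was at 152.9 to 614.6 FPKM and the thyroid transcription factor gene Nkx2-1 at 23.5 to 44.5 FPKM, whereas Epcam was at 0.0949 to 2.495 FPKM and the thyroid differentiation genes Tshr and Slc5a5 were at or near 0 in all 9 tumors. Tg, which encodes thyroglobulin, was at 30.2 and 12.2 FPKM in original/B6129SF1 replicates 2 and 3 and at 31.0 and 11.3 FPKM in adapted/C57BL/6 replicates 1 and 2, and at no more than 1.203 FPKM in the other 5 tumors.

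In the IL-1 family, a ligand binds a receptor chain that then recruits an accessory chain, and the joined intracellular domains signal through MyD88 and IRAK kinases to NF-kB. IL-33 is a nuclear cytokine of stromal, endothelial and epithelial cells that is released on damage. It binds ST2, which pairs with IL-1RAcP, the product of Il1rap, and mast cells, group 2 innate lymphoid cells (ILC2) and a subset of regulatory T cells are well-known carriers of ST2. A soluble form of ST2 acts as a decoy for IL-33. Gene-level FPKM values do not separate the soluble from the membrane form. IL-1 signals through IL-1R1 with the same accessory chain, IL-1R2 is a decoy receptor, and the IL-1 receptor antagonist, the product of Il1rn, occupies IL-1R1 without signaling.

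Il1rl1 was the most abundant of the 10 genes in the original/B6129SF1 tumors and only the sixth in the adapted/B6129SF1 tumors. Its level was 113.0, 28.6 and 136.2 FPKM in the 3 original/B6129SF1 tumors, 5.16, 4.12 and 6.76 FPKM in the adapted/B6129SF1 tumors and 13.96, 17.4 and 31.4 FPKM in the adapted/C57BL/6 tumors. All adapted/B6129SF1 tumors were below all others. The adapted/C57BL/6 tumors overlapped with the original/B6129SF1 tumors, since adapted/C57BL/6 replicate 3 was above original/B6129SF1 replicate 2, the lowest of its group. The mean level was 92.6 ± 56.6 FPKM in original/B6129SF1 (SD, n = 3), 5.34 ± 1.33 in adapted/B6129SF1 and 20.9 ± 9.22 in adapted/C57BL/6.

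The mean was thus 17.3-fold lower in adapted/B6129SF1 and 4.43-fold lower in adapted/C57BL/6 than in original/B6129SF1. On the log2(FPKM + 1) scale, on which all fold changes below are given and which understates changes of low genes, the differences were -3.63 and -1.90. Among the 10263 genes that reached 1 FPKM in 3 or more tumors, 1 gene was lower than Il1rl1 by a larger difference in adapted/B6129SF1 and 20 genes in adapted/C57BL/6. These values describe the gene as it was picked. Without original/B6129SF1 replicate 2 the differences were -4.32 and -2.59, and without both tumors rich in muscle transcripts they were -3.79 and -1.67.

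The difference in Il1rl1 between the host strains did not choose the gene and was tested. The mean level in adapted/C57BL/6 was 3.91-fold that in adapted/B6129SF1, and all 3 adapted/C57BL/6 tumors were above all 3 adapted/B6129SF1 tumors. Its log2 fold change was 1.73 (SE 0.54, 95% interval 0.50 to 2.96), and 3 of the genes tested showed a larger rise. Using limma with Benjamini-Hochberg adjustment over all 10263 genes, the adjusted p was 0.624, so the difference did not pass the threshold. A gene was called when its adjusted p was under 0.05 and its absolute log2 fold change was above 1, and this comparison called 3 genes, or 0.0292% of those tested. Without both tumors rich in muscle transcripts the log2 fold change was 2.12.

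**Figure D1:**
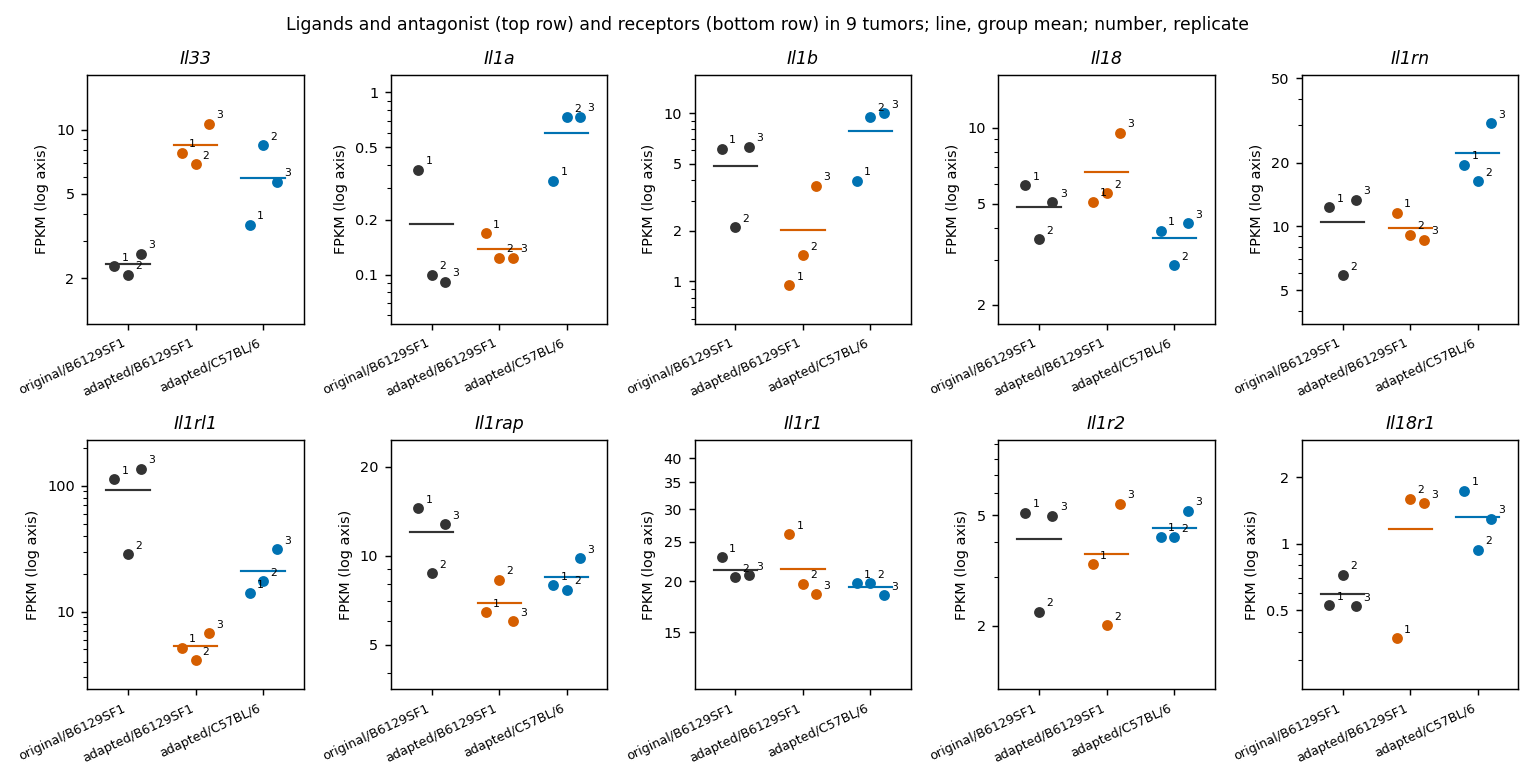
FPKM (log axis, with its own range in each panel) of the 10 IL-1 family genes in each of the 9 tumors; points are tumors numbered by replicate and horizontal lines are group means. Il1rl1 lay between 4.12 and 6.76 FPKM in adapted/B6129SF1 and at or above 13.96 FPKM in the other groups, while Il33 was lowest in the original/B6129SF1 tumors.

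Il33, the gene of the ligand of ST2, was higher in both groups of adapted tumors. Its level was 2.29, 2.08 and 2.62 FPKM in the original/B6129SF1 tumors, 7.79, 6.89 and 10.7 FPKM in the adapted/B6129SF1 tumors and 3.58, 8.45 and 5.69 FPKM in the adapted/C57BL/6 tumors. Each of the 6 adapted tumors was above each original/B6129SF1 tumor, and the 2 adapted groups overlapped. Il33 rose 3.63-fold by means in adapted/B6129SF1, from 2.33 ± 0.269 to 8.45 ± 1.98 FPKM (SD, n = 3). On the log2 scale the change was 1.49 (SE 0.25, 95% interval 0.91 to 2.07; adjusted p = 0.0129 in limma).

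In adapted/C57BL/6, Il33 was at 5.91 ± 2.44 FPKM, a log2 fold change of 0.99 (95% interval 0.42 to 1.57; adjusted p = 0.0522 in limma), just short of both thresholds. It passed both without adapted/C57BL/6 replicate 1, where the log2 fold change was 1.26 and the adjusted p was 0.0228. It was 0.74 without adapted/C57BL/6 replicate 2, and the adjusted p reached 0.16 without adapted/C57BL/6 replicate 3. Between the adapted groups the log2 fold change of Il33 was -0.49 (adjusted p = 0.821). Among all genes tested, 2.36% were called higher and 0.857% lower in adapted/B6129SF1 than in original/B6129SF1, and 2.42% higher and 0.672% lower in adapted/C57BL/6. Il18r1 met the filter on low values through adapted tumors alone and was left out of the counts that follow. Of the 7 other tested genes of the family besides Il1rl1, 1 was called in adapted/B6129SF1, which was Il33, and 0 in adapted/C57BL/6. At an unadjusted p under 0.05 the counts were 2 and 3 of 7, while 26.5% and 24.4% of all genes tested were under it. These 2 comparisons share the original/B6129SF1 tumors, so their values are not independent of each other. Between the adapted groups 0 of the 7 were called by limma, against 0.0292% of all genes tested. Of the 7, 3 had an unadjusted p under 0.05, which were Il1b, Il1rn and Il18, against 6.27% of all genes tested. The median log2 fold change of these 7 genes was -0.03 in adapted/B6129SF1 and 0.16 in adapted/C57BL/6, against -0.03 over all genes tested in both comparisons.

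Markers of endothelial cells and fibroblasts, among the known sources of IL-33, were read beside Il33. The 8 endothelial markers, led by Pecam1, summed to 69.9, 70.5 and 89.2 FPKM in original/B6129SF1, 108.4, 76.0 and 120.2 FPKM in adapted/B6129SF1 and 108.1, 94.1 and 89.7 FPKM in adapted/C57BL/6. Their log2 fold changes were above 0 for 8 of 8 in both comparisons, with medians of 0.36 and 0.24. By limma 0 were called higher, against 2.36% and 2.42% of all genes tested. An unadjusted p under 0.05 was found for 1 of 8 in each, against 26.5% and 24.4% of all genes. That marker was Egfl7, at 0.59 in both (adjusted p = 0.0406 and 0.0471 in limma), under the fold threshold. The 8 fibroblast markers, led by Col3a1, summed to 1018 ± 159.0, 1217 ± 265.8 and 1145 ± 112.4 FPKM (SD, n = 3), with 5 of 8 above 0 in both comparisons and medians of 0.33 and 0.40. Of these, 1 was called in adapted/B6129SF1 and 0 in adapted/C57BL/6 by limma, with 3 of 8 at an unadjusted p under 0.05 in each. Fap, which encodes a protease of activated fibroblasts, rose in adapted/B6129SF1 (log2 fold change 1.21, adjusted p = 0.0161 in limma), a call lost under 2 of 17 alternatives, one of them without original/B6129SF1 replicate 3 (adjusted p = 0.0656). In adapted/C57BL/6 its log2 fold change of 0.89 (adjusted p = 0.0479) was under the fold threshold. The part of these cells in the level of Il33 was not tested.

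The receptor and its ligand lay in different proportions in the 3 groups. FPKM of Il1rl1 was 49.3, 13.7 and 52.1 times that of Il33 in the original/B6129SF1 tumors, 0.662, 0.598 and 0.633 times in the adapted/B6129SF1 tumors and 3.90, 2.06 and 5.51 times in the adapted/C57BL/6 tumors. The groups did not overlap in this ratio, and Il1rl1 was below Il33 in the adapted/B6129SF1 tumors only. As the numerator had been picked for its difference, this ratio was not tested.

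Il1rap, the gene of the accessory chain shared by the IL-33 and IL-1 receptors, was at 14.5, 8.72 and 12.8 FPKM in the original/B6129SF1 tumors, 6.43, 8.28 and 6.01 FPKM in the adapted/B6129SF1 tumors and 7.94, 7.68 and 9.79 FPKM in the adapted/C57BL/6 tumors. The adapted/B6129SF1 tumors were below the original/B6129SF1 tumors without overlap, by a narrow gap, whereas the adapted/C57BL/6 tumors overlapped with them. The log2 fold change was -0.70 in adapted/B6129SF1 (SE 0.19; adjusted p = 0.0582 in limma) and -0.44 in adapted/C57BL/6 (adjusted p = 0.202), and neither passed the threshold. FPKM of Il1rl1 was 3.29 to 10.7 times that of Il1rap in original/B6129SF1, 0.497 to 1.12 times in adapted/B6129SF1 and 1.76 to 3.21 times in adapted/C57BL/6.

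Il1r1, the signaling receptor for IL-1, differed little between the groups. It was at 22.9, 20.4 and 20.7 FPKM in original/B6129SF1, 26.1, 19.7 and 18.6 FPKM in adapted/B6129SF1 and 19.8, 19.8 and 18.5 FPKM in adapted/C57BL/6. The adapted/B6129SF1 tumors spanned the original/B6129SF1 range, and the 95% interval of the log2 fold change ran from -0.29 to 0.28. The adapted/C57BL/6 tumors were all below the original/B6129SF1 tumors, by a log2 fold change of -0.13 that did not pass the test (adjusted p = 0.567 in limma). Il1r1 thus ranked second to Il1rl1 in original/B6129SF1, first in adapted/B6129SF1 and behind Il1rn and Il1rl1 in adapted/C57BL/6, while its mean level stayed between 19.4 and 21.5 FPKM.

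Il1r2, the decoy receptor, was at 5.11, 2.25 and 4.98 FPKM in original/B6129SF1, 3.33, 2.02 and 5.50 FPKM in adapted/B6129SF1 and 4.19, 4.17 and 5.19 FPKM in adapted/C57BL/6. The groups overlapped in each comparison. Its log2 fold change against original/B6129SF1 was -0.16 in adapted/B6129SF1 (adjusted p = 0.777 in limma) and 0.16 in adapted/C57BL/6 (adjusted p = 0.796).

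Il18r1, the ligand-binding chain of the IL-18 receptor, was the lowest of the receptors. It was at 0.528, 0.726 and 0.522 FPKM in original/B6129SF1, 0.375, 1.60 and 1.53 FPKM in adapted/B6129SF1 and 1.74, 0.941 and 1.30 FPKM in adapted/C57BL/6. The adapted/C57BL/6 tumors were above the original/B6129SF1 tumors without overlap, and adapted/B6129SF1 replicate 1 was the lowest of all 9. As the gene met the filter through adapted tumors alone, no test of it against original/B6129SF1 is given.

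Among the ligands, Il1b was highest in the adapted/C57BL/6 tumors. It encodes IL-1 beta, which is made as a precursor mainly by myeloid cells and cleaved by caspase-1. Its level was 6.13, 2.09 and 6.30 FPKM in original/B6129SF1, 0.950, 1.43 and 3.70 FPKM in adapted/B6129SF1 and 3.96, 9.55 and 9.98 FPKM in adapted/C57BL/6. All adapted/C57BL/6 tumors were above all adapted/B6129SF1 tumors, and original/B6129SF1 overlapped with both. The log2 fold change between the adapted groups was 1.56 (SE 0.46, 95% interval 0.51 to 2.62; adjusted p = 0.602 in limma), which did not pass the test. Against original/B6129SF1 it was -0.95 in adapted/B6129SF1 (adjusted p = 0.23) and 0.61 in adapted/C57BL/6 (adjusted p = 0.466). The 10 markers of neutrophils, which are among the myeloid cells, were led by Mmp9. They summed to 170.0, 95.3 and 165.3 FPKM in original/B6129SF1, 386.6, 302.2 and 81.8 FPKM in adapted/B6129SF1 and 236.1, 75.2 and 98.0 FPKM in adapted/C57BL/6, so the groups overlapped. By means in the same order, Mmp9 was at 113.9, 237.8 and 99.5 FPKM. In contrast, S100a8 (14.2, 9.44 and 15.3), S100a9 (9.81, 3.45 and 13.8) and Cxcr2 (0.630, 0.101 and 0.421) were lowest in adapted/B6129SF1. The same held for Retnlg (1.673, 0.8584 and 1.202). The other markers differed from this order. Csf3r (1.636, 3.315 and 2.692) was, like Mmp9, highest in adapted/B6129SF1. Mmp8 (1.609, 1.37 and 1.19) was lowest in adapted/C57BL/6. Camp (0.09483, 0.37 and 1.335) and Ltf (0.03718, 0.1062 and 0.8893) were lowest in original/B6129SF1. Ly6g was at 0 in 8 tumors. Of the 6 markers tested, 3 had a log2 fold change above 0 between the adapted groups. The part of neutrophils in Il1b was not tested.

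Il1rn had a similar order. It was at 12.3, 5.91 and 13.4 FPKM in original/B6129SF1, 11.6, 9.15 and 8.64 FPKM in adapted/B6129SF1 and 19.6, 16.3 and 30.6 FPKM in adapted/C57BL/6. All adapted/C57BL/6 tumors were above all tumors of the other groups, and Il1rn was the most abundant of the 10 genes there by its mean of 22.2 ± 7.50 FPKM (SD, n = 3), although its range overlapped with those of Il1rl1 and Il1r1, the next in order. The log2 fold change was 1.03 against original/B6129SF1 (SE 0.31, 95% interval 0.33 to 1.73; adjusted p = 0.08 in limma) and 1.06 against adapted/B6129SF1 (95% interval 0.37 to 1.76; adjusted p = 0.602). Between adapted/B6129SF1 and original/B6129SF1 it was -0.03 (adjusted p = 0.958).

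Il18 showed the opposite order between the hosts. This ligand is also cleaved by caspase-1 and is neutralized by a secreted binding protein, the product of Il18bp. Il18 was at 5.93, 3.62 and 5.08 FPKM in original/B6129SF1, 5.09, 5.51 and 9.55 FPKM in adapted/B6129SF1 and 3.92, 2.86 and 4.20 FPKM in adapted/C57BL/6. All adapted/C57BL/6 tumors were below all adapted/B6129SF1 tumors, by a log2 fold change of -0.69 (SE 0.24, 95% interval -1.24 to -0.15; adjusted p = 0.718 in limma). It was 0.37 in adapted/B6129SF1 (adjusted p = 0.361) and -0.33 in adapted/C57BL/6 (adjusted p = 0.45) against original/B6129SF1, where the groups overlapped.

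Il1a stayed below 1 FPKM in all 9 tumors, so the fit across genes did not include it. It was at 0.377, 0.0998 and 0.0914 FPKM in original/B6129SF1, 0.169, 0.124 and 0.124 FPKM in adapted/B6129SF1 and 0.327, 0.732 and 0.737 FPKM in adapted/C57BL/6. The adapted/C57BL/6 tumors were above the adapted/B6129SF1 tumors without overlap, with an exact two-sided permutation p of 0.1, the smallest that 3 against 3 tumors allow. The exact permutation p was 0.2 for adapted/C57BL/6 and 1 for adapted/B6129SF1 against original/B6129SF1.

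**Figure D2:**
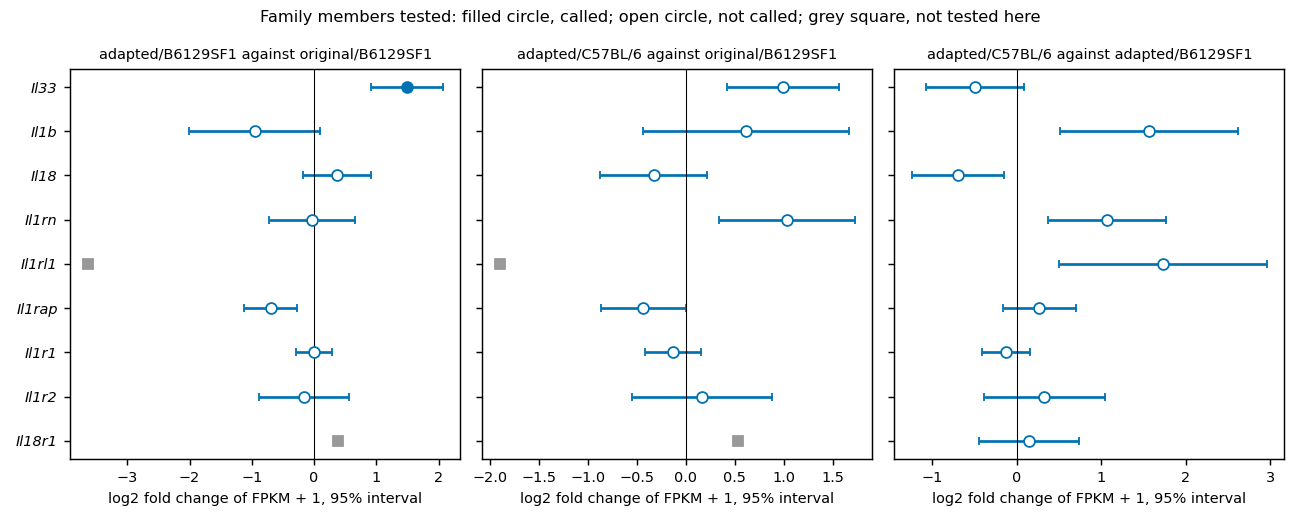
Log2 fold change of FPKM + 1 (horizontal axis, its own range in each panel) of the 9 genes above the filter in the 3 comparisons; bars are 95% intervals, filled circles passed the test, open circles did not, and grey squares mark fold changes given without a test, those of Il1rl1 and Il18r1 against original/B6129SF1. Il33 in adapted/B6129SF1 against original/B6129SF1, at 1.49, is the filled circle.

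Original/B6129SF1 replicate 2 was the lowest of its group for 8 of the 10 genes, Il1a and Il18r1 being the exceptions, whereas 41.2% of all genes tested were lowest there. Adapted/C57BL/6 replicate 3 was the highest of its group for 7 of the 10 genes, and 31.9% of all genes tested were highest there. The 3 adapted/B6129SF1 tumors were the lowest of their group for 3, 3 and 4 genes. The summed FPKM of the 10 genes was 153.4 ± 69.0 in original/B6129SF1, 65.7 ± 6.24 in adapted/B6129SF1 and 94.7 ± 20.1 in adapted/C57BL/6 (SD, n = 3), and Il1rl1 made up 60.4%, 8.14% and 22.1% of the mean sums.

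Over the 9 tumors, Pearson's r with Il1rl1 was 0.902 for Il1rap, 0.614 for Il1b, 0.456 for Il1r2, 0.204 for Il1rn, 0.0278 for Il1r1, -0.162 for Il18, -0.483 for Il18r1 and -0.761 for Il33. The points shared the 3 groups, so that r mostly followed the group means. With the group means subtracted, r was 0.869 for Il1rn, 0.818 for Il1r2, 0.8 for Il1b, 0.702 for Il1rap, 0.627 for Il18, 0.351 for Il33, 0.0164 for Il1r1 and -0.198 for Il18r1. These correlations are descriptions.

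Among all genes tested, the 8 with the highest r with Il1rl1 were Hoxb9 (0.967), Ptpn21 (0.964), Phactr4 (0.963), Mapk6 (0.961), Stc2 (0.96), Lclat1 (0.96), Gatad2a (0.959) and Otud4 (0.956). With Spearman's rank correlation, 1 of these 8 was among the 8 highest. Stc2, which encodes the secreted glycoprotein stanniocalcin 2, was at 14.7, 7.33 and 17.3 FPKM in original/B6129SF1, 1.87, 2.83 and 1.47 FPKM in adapted/B6129SF1 and 4.22, 3.54 and 5.86 FPKM in adapted/C57BL/6. Its groups did not overlap. Hoxb9, a homeobox transcription factor gene, was at 9.22 to 15.1 FPKM in original/B6129SF1, 3.94 to 5.37 FPKM in adapted/B6129SF1 and 6.00 to 8.60 FPKM in adapted/C57BL/6. Mapk6, which encodes an atypical MAP kinase, was at 81.3 to 143.6, 51.4 to 58.3 and 71.6 to 109.2 FPKM in the same order.

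The 5 genes with the lowest r were Tcf7l1 (-0.973), A4galt (-0.971), Cd302 (-0.967), Serpinb8 (-0.961) and Taf7 (-0.959). Tcf7l1, a TCF/LEF transcription factor gene of the Wnt pathway, was at 3.04, 5.82 and 2.00 FPKM in original/B6129SF1, 11.5, 13.9 and 12.0 FPKM in adapted/B6129SF1 and 7.71, 7.93 and 7.73 FPKM in adapted/C57BL/6, the reverse of the order of Il1rl1. With the group means subtracted, among genes with a mean of at least 5 FPKM, r was highest for Lsp1 (0.968), Fem1b (0.967), Nfkb2 (0.955), Pus1 (0.955) and Hsf1 (0.955). Lsp1, a gene of leukocytes, had an r of 0.0136 when the group means were kept.

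**Figure D3:**
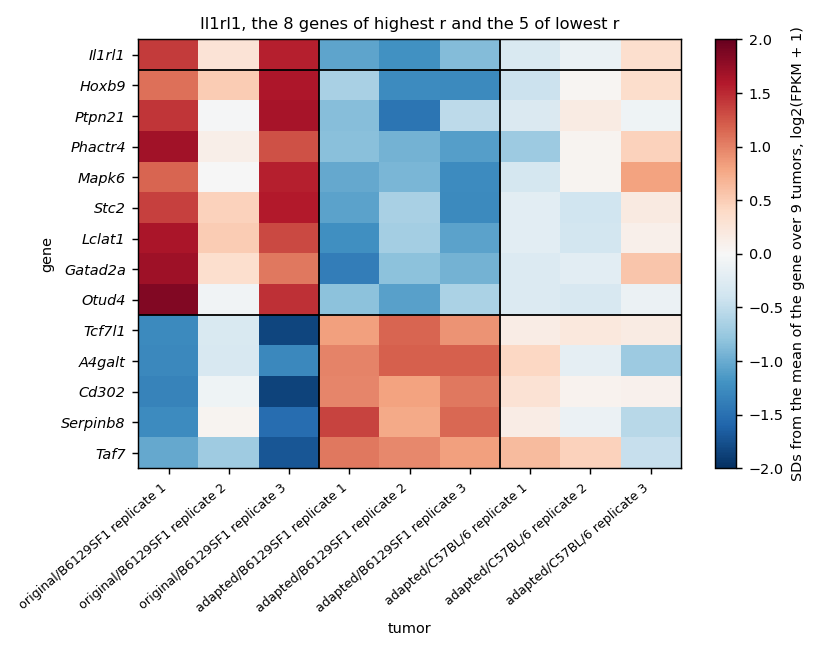
Level of Il1rl1, of the 8 genes of highest Pearson r and of the 5 of lowest r with it in the 9 tumors, as SDs of log2(FPKM + 1) from the mean of each gene (color scale). The upper block is highest in the original/B6129SF1 tumors and the lower block in the adapted/B6129SF1 tumors, with the adapted/C57BL/6 tumors and original/B6129SF1 replicate 2 nearer to the mean.

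The wider pathway was read from lists of other family members, signaling chains, processing enzymes and responsive genes. Between adapted/B6129SF1 and original/B6129SF1, 8.28% of all genes tested had an adjusted p under 0.05 at any fold change, and between adapted/C57BL/6 and original/B6129SF1 6.75% had. Of 6 other ligands and antagonists listed, 2 had a row and 1 was tested. Il18bp rose in both comparisons. It was at 5.53, 5.26 and 5.17 FPKM in original/B6129SF1, 14.3, 12.2 and 20.1 FPKM in adapted/B6129SF1 and 18.7, 17.8 and 28.6 FPKM in adapted/C57BL/6, and every adapted tumor was above every original/B6129SF1 tumor. The log2 fold change was 1.36 in adapted/B6129SF1 (adjusted p = 0.00967 in limma) and 1.81 in adapted/C57BL/6 (adjusted p = 0.00294). FPKM of Il18bp was 1.13 ± 0.279 times that of Il18 in original/B6129SF1, 2.37 ± 0.380 times in adapted/B6129SF1 and 5.94 ± 1.06 times in adapted/C57BL/6 (SD, n = 3), without overlap between the groups. Il1f10 was listed at 0 in all tumors.

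Of 5 other receptors listed, 3 were tested. Sigirr, which encodes a single-domain receptor that restrains IL-1 family signaling, was at 1.43, 0.969 and 1.22 FPKM in original/B6129SF1, 3.47, 3.59 and 4.29 FPKM in adapted/B6129SF1 and 2.63, 4.11 and 2.78 FPKM in adapted/C57BL/6. It rose in adapted/B6129SF1 (log2 fold change 1.12, adjusted p = 0.00859 in limma). In adapted/C57BL/6 its log2 fold change of 0.91 (adjusted p = 0.017) was under the fold threshold. Il1rl2, the receptor for IL-36, had a log2 fold change of 0.81 in adapted/B6129SF1 (adjusted p = 0.0166) and 0.56 in adapted/C57BL/6 (adjusted p = 0.0573). Il18rap, the accessory chain of the IL-18 receptor, was at -0.71 (adjusted p = 0.105) and 0.03 (adjusted p = 0.96).

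Il1rl1 is known to lie in a cluster of receptor genes with Il1r2, Il1r1, Il1rl2, Il18r1 and Il18rap. Of 11 genes listed in and around this cluster, 10 were tested. The count of calls among the 8 tested genes other than Il1rl1 and Il18r1 was 0 in both comparisons with original/B6129SF1, by limma. Of all genes tested, 2.36% and 2.42% were called higher and 0.857% and 0.672% lower. An unadjusted p under 0.05 was found for 4 and 3 of 8, against 26.5% and 24.4% of all genes tested. At an adjusted p under 0.05 alone, Il1rl2 passed in adapted/B6129SF1, upward. The median log2 fold change of the 8 genes was -0.08 in adapted/B6129SF1 and 0.10 in adapted/C57BL/6.

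Of 16 receptor signaling genes listed, 13 were tested and 0 were called in either comparison by limma. Of all genes tested, 2.36% and 2.42% were called higher and 0.857% and 0.672% lower. Their median log2 fold change was 0.05 in adapted/B6129SF1 and 0.03 in adapted/C57BL/6. In adapted/B6129SF1, 3 of 13 had an adjusted p under 0.05 at any fold change and 4 an unadjusted p under 0.05, against 0 and 3 of 13 in adapted/C57BL/6. Of all genes tested, 8.28% and 6.75% had an adjusted p under 0.05 at any fold change, and 26.5% and 24.4% had an unadjusted p under 0.05. The 3 with an adjusted p under 0.05 were Irak4, a kinase gene downstream of MyD88 (log2 fold change 0.37, adjusted p = 0.0485), Chuk, which encodes an IkB kinase (-0.33, adjusted p = 0.0442), and Rela, which encodes an NF-kB subunit (-0.34, adjusted p = 0.0433).

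Of 11 genes of the inflammasome and of cytokine processing, 10 were tested, with a median log2 fold change of 0.65 in adapted/B6129SF1 and 0.69 in adapted/C57BL/6. Casp1, the gene of the protease that cleaves the IL-1 beta and IL-18 precursors, was at 5.70, 6.30 and 5.32 FPKM in original/B6129SF1, 13.6, 17.7 and 22.2 FPKM in adapted/B6129SF1 and 17.2, 16.8 and 23.0 FPKM in adapted/C57BL/6. It rose in both, by a log2 fold change of 1.45 (adjusted p = 0.00512 in limma) and 1.55 (adjusted p = 0.00305), with no overlap. Pycard, the inflammasome adaptor gene, rose in adapted/B6129SF1 (log2 fold change 1.02, adjusted p = 0.027), a call lost under 8 of 18 alternatives (adjusted p up to 0.0955, without original/B6129SF1 replicate 3). Gsdmd, which encodes the pore-forming gasdermin D, had log2 fold changes of 0.85 (adjusted p = 0.00284) and 0.73 (adjusted p = 0.00438), both under the fold threshold. Counting Casp1 and Pycard, 2 of 10 genes were called higher in adapted/B6129SF1 and 1 in adapted/C57BL/6, against 2.36% and 2.42% of all genes tested, and 0 were called lower, against 0.857% and 0.672%. Macrophages and monocytes are known to express many of these genes. Their 11 markers, led by Lyz2, summed to 2209, 2786 and 2651 FPKM in original/B6129SF1, 3624, 2816 and 4214 FPKM in adapted/B6129SF1 and 3281, 1816 and 3428 FPKM in adapted/C57BL/6. The log2 fold change was above 0 for 10 of 11 in adapted/B6129SF1, with a median of 0.50, and for 8 of 11 in adapted/C57BL/6, with a median of 0.18. The monocyte chemokine receptor gene Ccr2 rose in adapted/B6129SF1 (log2 fold change 1.04, adjusted p = 0.0342 in limma), a call lost under 10 of 18 alternatives (up to 0.109, without original/B6129SF1 replicate 3). It was the 1 marker of 11 called there, and 0 were called in adapted/C57BL/6. An unadjusted p under 0.05 was found for 3 of 11 in adapted/B6129SF1 and 2 of 11 in adapted/C57BL/6, against 26.5% and 24.4% of all genes tested. The part of these cells in the inflammasome genes was not tested.

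Of 22 genes listed as responsive to NF-kB, 17 were tested, 2 were called lower in adapted/B6129SF1 and 1 in adapted/C57BL/6, and 0 were called higher in either by limma. Of all genes tested, 0.857% and 0.672% were called lower and 2.36% and 2.42% higher. An unadjusted p under 0.05 was found for 8 and 7 of 17, against 26.5% and 24.4% of all genes tested. An adjusted p under 0.05 at any fold change was found for 3 and 1 of 17, against 8.28% and 6.75%. Ptgs2, which encodes the prostaglandin synthase COX-2, was at 32.1, 10.9 and 43.3 FPKM in original/B6129SF1, 6.89, 3.17 and 2.70 FPKM in adapted/B6129SF1 and 3.39, 5.88 and 4.43 FPKM in adapted/C57BL/6. It fell in both comparisons, with means 6.77-fold and 6.30-fold lower, by 2.39 (adjusted p = 0.0215 in limma) and 2.24 (adjusted p = 0.0296) on the log2 scale, and the original/B6129SF1 tumors did not overlap with the adapted ones. The calls were lost under 6 and 8 of 18 alternatives, with an adjusted p up to 0.0761 without original/B6129SF1 replicate 1 in adapted/B6129SF1 and 0.105 without adapted/C57BL/6 replicate 3 in adapted/C57BL/6. The monocyte chemokine gene Ccl7 fell by 1.16 in adapted/B6129SF1 (adjusted p = 0.0376), a call lost under 10 of 18 alternatives (up to 0.112, without original/B6129SF1 replicate 1), and in adapted/C57BL/6 its log2 fold change was 0.19 (adjusted p = 0.719). Tnfaip3 went the other way, with log2 fold changes of 0.58 in adapted/B6129SF1 (adjusted p = 0.0299 in limma) and 0.51 in adapted/C57BL/6 (adjusted p = 0.0522), under the fold threshold. The median log2 fold change of the 17 genes was 0.05 and 0.14, with 9 and 11 of them above 0.

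**Figure D4:**
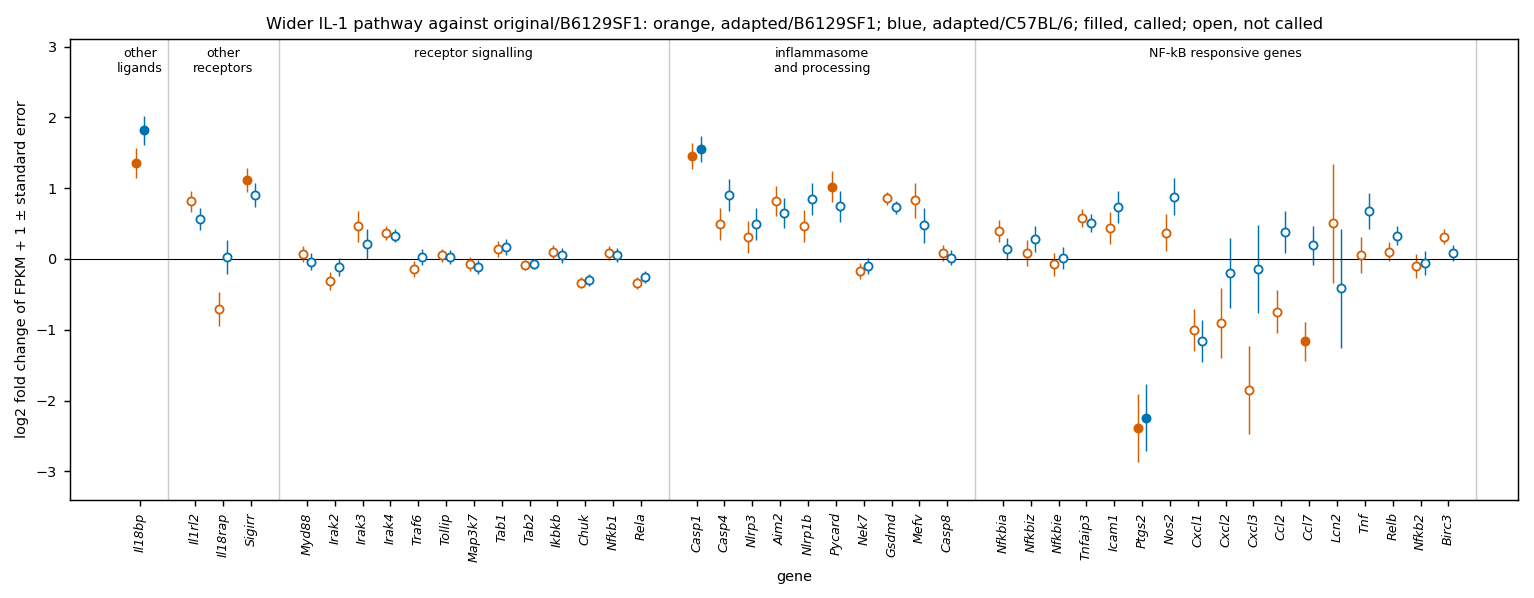
Log2 fold change of FPKM + 1 (vertical axis) of the tested genes of 5 pathway lists in adapted/B6129SF1 (orange) and adapted/C57BL/6 (blue) against original/B6129SF1; bars are standard errors and filled circles passed both thresholds. Il18bp and Casp1 are filled above 0 and Ptgs2 below 0 in both comparisons, and the receptor signaling genes lie close to 0.

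Genes of cytokines of type 2 responses, among them those that IL-33 is known for inducing, were low in these tumors. Il9 and Il25 were listed at 0 in every tumor, and Il13 was above 0 in 2 tumors, at no more than 0.0354 FPKM. Il5 was at 0, 0.0534 and 0.0609 FPKM in original/B6129SF1, 0.208, 0.118 and 0.182 FPKM in adapted/B6129SF1 and 0.0969, 0.264 and 0.106 FPKM in adapted/C57BL/6. Both adapted groups were above original/B6129SF1 without overlap, at levels far below the filter (exact two-sided permutation p = 0.1 in each, the smallest possible). Retnla, a gene of alternatively activated macrophages, was at 0, 0.0951 and 0.103 FPKM in original/B6129SF1, 1.31, 0.0797 and 4.86 FPKM in adapted/B6129SF1, which overlapped with it, and 0.914, 0.223 and 0.457 FPKM in adapted/C57BL/6, which did not (exact permutation p = 0.3 and 0.1). Of 15 genes on this list, 6 were tested and 0 were called in adapted/B6129SF1 or adapted/C57BL/6 against original/B6129SF1 by limma. Of all genes tested, 2.36% and 2.42% were called higher and 0.857% and 0.672% lower. In each comparison 2 of 6 had an unadjusted p under 0.05, against 26.5% and 24.4% of all genes tested. The log2 fold change was above 0 for 4 and 5 of the 6 genes. Ccl22, a chemokine gene, was at 0.478, 1.45 and 1.59 FPKM in original/B6129SF1 and 3.39, 2.79 and 2.92 FPKM in adapted/C57BL/6, without overlap, and its log2 fold change of 0.93 (adjusted p = 0.0473 in limma) was under the fold threshold. Areg, which encodes the growth factor amphiregulin, was at 11.0, 3.42 and 10.1 FPKM in original/B6129SF1, 3.62, 2.28 and 1.63 FPKM in adapted/B6129SF1 and 2.92, 2.25 and 3.70 FPKM in adapted/C57BL/6. The original/B6129SF1 tumors overlapped with both adapted groups through replicate 2, and the log2 fold changes were -1.30 (adjusted p = 0.0717) and -1.10 (adjusted p = 0.121).

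Markers of cells known to carry ST2 were summed per tumor. The 14 mast cell markers summed to 43.9, 32.1 and 46.7 FPKM in original/B6129SF1, 47.6, 65.1 and 135.6 FPKM in adapted/B6129SF1 and 35.9, 42.2 and 27.5 FPKM in adapted/C57BL/6. The highest sum was in adapted/B6129SF1 replicate 3, one of the tumors rich in muscle transcripts, and adapted/B6129SF1 replicate 1 was close to the highest original/B6129SF1 tumor. Gata2, which other cells also express, was the most abundant of them, and Ms4a2, a chain of the IgE receptor, was at 0 in 7 tumors and at no more than 0.0402 FPKM. Tpsab1, the gene of mast cell tryptase, was at 5.04, 3.998 and 6.83 FPKM in original/B6129SF1, 6.46, 10.9 and 18.6 FPKM in adapted/B6129SF1 and 0.618, 0.841 and 0.439 FPKM in adapted/C57BL/6. The adapted/C57BL/6 tumors were below all others, and since the gene met the filter only through the other groups, no test of it against adapted/C57BL/6 is given. Tpsab1 is part of the mast cell sum, with means of 5.29, 11.96 and 0.633 FPKM in original/B6129SF1, adapted/B6129SF1 and adapted/C57BL/6. Its low level in C57BL/6 hosts thus also lowered that sum there. The part of the host strain in the level of Tpsab1 was not tested. Of the 12 mast cell markers tested, 0 were called in adapted/B6129SF1 against original/B6129SF1 by limma, while 2.36% of all genes tested were called higher and 0.857% lower. Without the 3 that were below 1 FPKM in every tumor of a group, 5 of 9 had an unadjusted p under 0.05 there, against 26.5% of all genes tested. Of these 5, Gata2, Cma1, Cpa3 and Tpsb2 had log2 fold changes above 0 (0.996, 1.21, 1.17 and 1.25) and Hpgds one of -0.58. The protease genes Mcpt1 (-1.26) and Mcpt2 (-0.66) were also below 0. Gata2 had an adjusted p of 0.0109 in limma and was just under the fold threshold. Between the adapted groups, 5 of the 9 had an unadjusted p under 0.05, against 6.27% of all genes tested. There the median log2 fold change of the 9 was -0.62, with 3 above 0.

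The 6 regulatory T cell markers with a row summed to 5.92 ± 1.26 FPKM in original/B6129SF1, 9.52 ± 3.32 in adapted/B6129SF1 and 13.5 ± 0.972 in adapted/C57BL/6 (SD, n = 3). Tnfrsf18, which encodes the activation receptor GITR, was the most abundant and rose in adapted/C57BL/6 (log2 fold change 1.03, adjusted p = 0.0166 in limma), a call lost under 6 of 17 alternatives (adjusted p up to 0.0822, without adapted/C57BL/6 replicate 3). It was the 1 gene called of the 3 tested, against 2.42% of all genes tested. By means, Tnfrsf4, Ctla4 and Ccr8 had the same order of the groups, with Tnfrsf4 at a log2 fold change of 0.94 in adapted/C57BL/6 (adjusted p = 0.0106 in limma), under the fold threshold, and Ctla4 at 0.94 (adjusted p = 0.105). Ikzf2 and Il2ra did not share it. Ikzf2 had means of 0.839, 0.658 and 0.625 FPKM and Il2ra of 0.647, 0.608 and 1.03 FPKM in original/B6129SF1, adapted/B6129SF1 and adapted/C57BL/6, and both adapted groups overlapped with original/B6129SF1 in each. Of the 7 regulatory T cell markers listed, Foxp3 had no row, so the sum does not include it. The 10 ILC2 and Th2 markers summed to 5.14 ± 0.975, 7.47 ± 2.62 and 8.67 ± 0.919 FPKM, with Il7r the most abundant, and 6 of 10 were below 1 FPKM in all 9 tumors. The 8 eosinophil and basophil markers were below 1 FPKM in all tumors.

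Sums of epithelial and thyroid markers and of T cell and NK markers also ran in different orders. The 12 epithelial and thyroid markers summed to 975.7, 649.8 and 1011 FPKM in original/B6129SF1, 367.0, 581.0 and 290.0 FPKM in adapted/B6129SF1 and 433.3, 477.9 and 428.1 FPKM in adapted/C57BL/6. Krt8 led this list and fell in both comparisons, by 1.32 (adjusted p = 0.0189 in limma) and 1.12 (adjusted p = 0.0346), while Krt18 was at -0.94 (adjusted p = 0.116) and -0.93 (adjusted p = 0.131) and Nkx2-1 at 0.04 and 0.09. The sum was carried by Krt8 and Krt18. Over the 7 markers tested the median log2 fold change was -0.52 in adapted/B6129SF1, with 1 above 0, and 0.01 in adapted/C57BL/6, with 5 above 0, such as Cdh1 at 0.36. The fall of Krt8 was not called under 5 of 18 alternatives in adapted/B6129SF1 (adjusted p up to 0.0727) and 10 of 18 in adapted/C57BL/6 (up to 0.113), the highest values being those without original/B6129SF1 replicate 3. The 11 T cell and NK markers summed to 15.2 ± 6.98, 33.6 ± 14.03 and 70.5 ± 16.1 FPKM, led by Gzmb. The part of these cells in the levels of Il1rl1 and the other family genes was not tested.

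**Figure D5:**
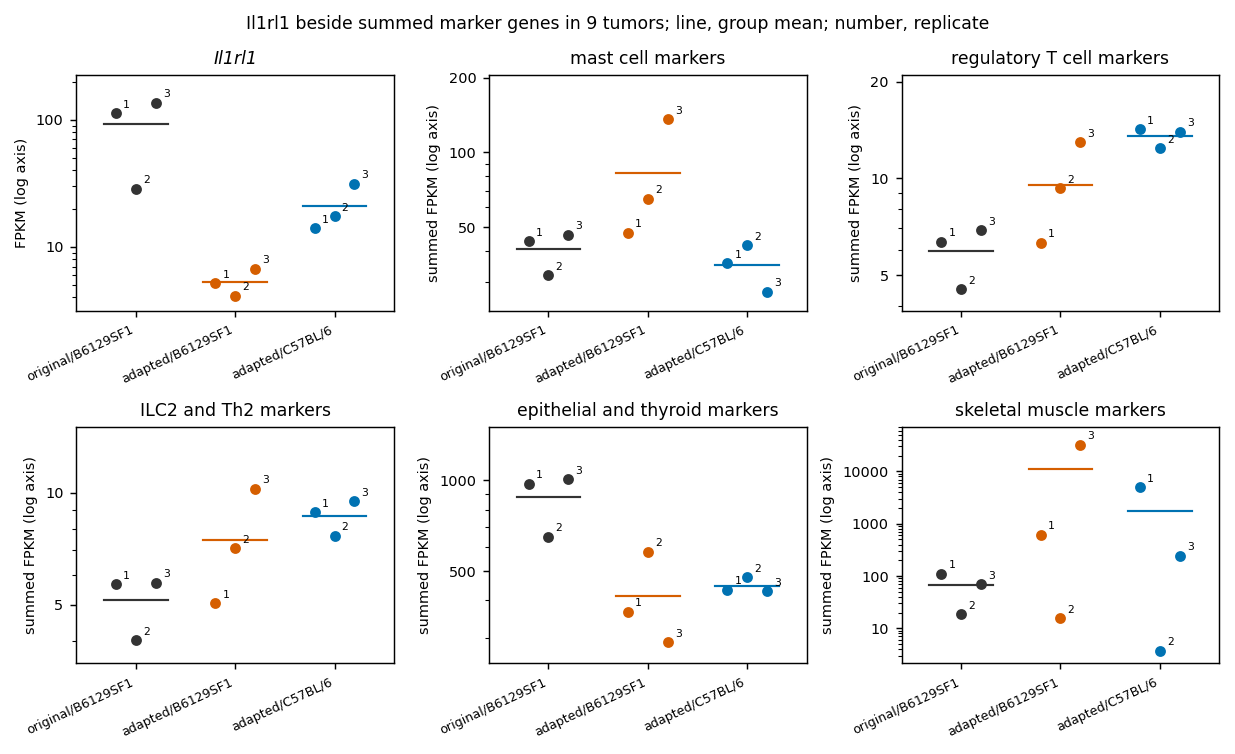
FPKM of Il1rl1 and summed FPKM of 5 marker lists (log axes, each with its own range) in the 9 tumors; points are tumors numbered by replicate and lines are group means. By group means, Il1rl1 and the epithelial and thyroid sum, which Krt8 and Krt18 carry, are highest in original/B6129SF1, mast cell markers in adapted/B6129SF1, where replicate 3 is far above the rest, and regulatory T cell markers in adapted/C57BL/6.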

How the data were processed

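Bulk RNA from 9 tumors (3 per group) was examined, with groups and replicate numbers taken from the sample titles and each column matched to its sample by label. The authors deposited one table of FPKM, scaled by Cuffnorm. Their processing notes also name FastQC, HISAT2, Cuffdiff and the mm10 build. The gene annotation, the Cuffnorm scaling and any gene filter are not given in the sources used here. The labels name the organism as human, but the tumors were mouse.

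FPKM values are not counts, so log2(FPKM + 1) was tested with limma 3.58.1 in R 4.3.3 (eBayes, trend on the mean), fitting all 3 groups together, for the 10263 genes that reached 1 FPKM in 3 or more tumors. Benjamini-Hochberg adjustment covered all of them. Genes below the filter received an exact permutation test. Nothing states how the replicates were bred or pooled. The p-values of limma set group differences against the spread between these tumors, and they do not cover variation between adapted lines.

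The family genes and lists were chosen with earlier results of these data known, and no list received a test. Named genes were the 10 family genes, genes discussed by their lists, and those with the highest or lowest r with Il1rl1 (8 and 5 over all tumors, 5 within groups). Alternatives covered scaling, pseudocount, filter, samples in the fit, variance trend, call threshold, replicate block and leaving out tumors. No mouse sequence or coordinates were used here.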

Additional observations from a re-analysis of the deposited data

How the results depend on the processing

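Between 150 and 350 genes were called in adapted/B6129SF1 against original/B6129SF1 when each tumor was left out in turn (330 with all), the lowest without original/B6129SF1 replicate 3. In adapted/C57BL/6 against original/B6129SF1, 154 to 343 genes were called (317 with all), with 184 without original/B6129SF1 replicate 3 and 154 without adapted/C57BL/6 replicate 3. Between the adapted groups, 0 to 6 genes were called (3 with all), 6 without adapted/B6129SF1 replicate 1, 0 without adapted/C57BL/6 replicate 3, and 1 without original/B6129SF1 replicate 2, original/B6129SF1 replicate 3 or adapted/C57BL/6 replicate 1. An adjusted p alone gave 850 and 693 genes against original/B6129SF1, and a mean of at least 5 FPKM gave 219 and 199, where fewer genes were tested. Between the adapted groups, 1 gene was called with no filter, and 0 with a mean of at least 5 FPKM, with only the 2 groups compared or with the replicate block.

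The count of family genes other than Il1rl1 called in adapted/B6129SF1 was 1 under every alternative. In adapted/C57BL/6 against original/B6129SF1 it was 0, and 1 (Il33) with each tumor rescaled to 1000000 (log2 fold change 1.13, adjusted p = 0.0387), with a pseudocount of 0.1 (1.23, 0.0425) and without both tumors rich in muscle transcripts (1.26, 0.0113). It ranged from 0 to 1 when single tumors were left out. The differences of Il1rl1 ranged over all alternatives from -4.32 to -3.22, from -2.59 to -1.49 and from 1.41 to 2.12. The adjusted p of the last, by limma, ranged from 0.326 to 0.999.

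Small differences turned sign. Il1r1 in adapted/B6129SF1 against original/B6129SF1 went from -0.00415 to 0.026 with quantile normalization and 0.087 without both muscle-rich tumors, and Il1rn from -0.033 to 0.044 without them. With single tumors left out, the ranges were -0.15 to 0.087 for Il1r1, -0.37 to 0.16 for Il1rn and -0.46 to 0.11 for Il1r2 in adapted/B6129SF1 against original/B6129SF1, -0.14 to 0.32 for Il1r2 in adapted/C57BL/6 against original/B6129SF1, and -0.22 to 0.013 for Il1r1 and -0.16 to 0.30 for Il18r1 between the adapted groups. Il1a, low in all tumors, moved to 1.34 and 1.49 with a pseudocount of 0.1 and to 0.68 and 0.77 with rescaling, in adapted/C57BL/6 against original/B6129SF1 and adapted/B6129SF1. Where no cause is named, the cause was not tested.

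The deviations of same-numbered tumors from their group means had r from -0.388 to 0.614, with no steady sign of pairing by number. With 3 tumors per group these values cannot settle whether such tumors shared a batch. The replicate block gave 242 and 245 genes against original/B6129SF1 and changed no call of a family gene. Of the 8 genes most like Il1rl1, 8 were shared with a pseudocount of 0.1 and 1 with Spearman's rank correlation. The alternatives were also applied, after the data had been seen, to the called genes of the lists, where Il18bp and Casp1 were called under all 18 in both comparisons with original/B6129SF1, and Sigirr under 16 of 17 in adapted/B6129SF1. Depth was unknown, and 3 tumors per group limit the precision.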
